A study of Mus musculus with 9 samples.

Results

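The Cyp2c cytochrome P450 genes of the mouse were measured in livers of KKAy mice, which are obese and become diabetic. The family was given by 10 gene names, Cyp2c29, Cyp2c37, Cyp2c38, Cyp2c39, Cyp2c40, Cyp2c44, Cyp2c50, Cyp2c54, Cyp2c55 and Cyp2c70, and all probe sets that the array annotation assigns to them were taken. This gave 9 probe sets for 9 of the 10 genes, among the 45037 probe sets tested, with 1 probe set per gene and 0 probe sets shared between Cyp2c genes. Cyp2c44 is listed under its present name Cyp2c23 and was matched by gene ID, and Cyp2c40 had no probe set by this rule and is not analysed here. Probe sets of 2 further family genes, Cyp2c65 and Cyp2c68, served for comparison. The genes were chosen by family name after log2 differences between BI and untreated liver on these same arrays had been seen, so values of that contrast are a description here and carry no test.

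The study had 3 groups of 3 arrays from livers of KKAy mice, labelled as 8 weeks old. BI mice received insulin of which 11% had been modified by biomineralization, insulin mice received plain insulin at the same total concentration (40 µg/mL), and the arrays called untreated here carry a label of no treatment. Per the labels' protocols both insulin solutions were given as 100 µL into the peritoneum, in DMEM culture medium, and control mice were injected with the medium alone; the labels do not say whether the untreated arrays are those mice. The mice ate a chow with 34% fat, except that the protocol attached to BI replicate 2 describes rats. The labels do not tell whether an array holds RNA of a single animal or of a pool, so the p-values below rest on the spread between these samples alone, and that spread may be technical.

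Cytochrome P450 enzymes of the endoplasmic reticulum insert oxygen into lipids, steroids, retinoids and drugs with electrons supplied by P450 reductase. The mouse Cyp2c genes lie on chromosome 19, mostly as a cluster of tandem copies, and are among the main P450 genes of the hepatocyte. Many of their enzymes are epoxygenases or hydroxylases of arachidonic and linoleic acid, and their products include vasoactive epoxyeicosatrienoic acids. The nuclear receptors CAR (Nr1i3) and PXR (Nr1i2), which respond to drugs and steroids, and the hepatocyte factor HNF4A are known regulators of Cyp2c genes.

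The stretches around the transcription starts are printed for Cyp2c39 and Cyp2c38, whose 3 groups did not overlap, and for the pair Cyp2c37 and Cyp2c50. Deviations of this pair within groups had a Pearson's r of 0.888 over the 9 arrays, but of 0.046 without untreated replicate 2 and BI replicate 1. Cyp2c50 had a higher r with Cyp2c44 (0.899) and Cyp2c54 (0.89), for which no window was available. Each window runs from 250 bases before to 50 bases after the start, 5′ to 3′ on the gene's strand, from RefSeq (GRCm38.p6). Cyp2c39 has a window at each of its annotated starts, at chr19:39347096-39347395 and chr19:39510572-39510871 (plus strand). Those of Cyp2c38 (chr19:39463026-39463325, minus strand), Cyp2c37 (chr19:39992174-39992473, plus strand) and Cyp2c50 (chr19:40089429-40089728, plus strand) follow. Capitals mark matches to CAAAGTCNA, a pattern that includes the HNF4-specific core CAAAGTCCA. All matches marked here read CAAAGTCTA and not that stricter form.
Cyp2c39, upstream start: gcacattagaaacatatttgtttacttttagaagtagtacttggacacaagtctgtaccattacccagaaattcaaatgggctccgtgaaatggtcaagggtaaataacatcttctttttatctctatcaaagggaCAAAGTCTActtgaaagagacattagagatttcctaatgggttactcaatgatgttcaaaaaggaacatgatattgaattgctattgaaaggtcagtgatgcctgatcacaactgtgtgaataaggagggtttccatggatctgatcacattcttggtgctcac
Cyp2c39, downstream start: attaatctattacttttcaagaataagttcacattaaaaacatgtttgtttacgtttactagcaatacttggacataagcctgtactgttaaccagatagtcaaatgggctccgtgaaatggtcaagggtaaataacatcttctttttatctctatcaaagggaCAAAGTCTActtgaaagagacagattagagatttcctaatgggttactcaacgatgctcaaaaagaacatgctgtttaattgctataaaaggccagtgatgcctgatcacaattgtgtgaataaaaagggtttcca
Cyp2c38: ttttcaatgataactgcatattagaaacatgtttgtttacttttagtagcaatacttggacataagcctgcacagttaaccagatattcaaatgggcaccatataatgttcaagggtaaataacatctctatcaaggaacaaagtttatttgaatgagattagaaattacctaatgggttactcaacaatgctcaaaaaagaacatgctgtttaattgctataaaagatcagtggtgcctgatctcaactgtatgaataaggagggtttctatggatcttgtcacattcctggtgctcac
Cyp2c37: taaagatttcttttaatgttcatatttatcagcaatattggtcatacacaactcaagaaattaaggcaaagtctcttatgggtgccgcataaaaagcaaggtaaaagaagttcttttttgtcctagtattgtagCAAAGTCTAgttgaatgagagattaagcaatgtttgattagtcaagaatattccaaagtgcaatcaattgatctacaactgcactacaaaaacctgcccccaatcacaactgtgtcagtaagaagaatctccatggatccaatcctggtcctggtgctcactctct
Cyp2c50: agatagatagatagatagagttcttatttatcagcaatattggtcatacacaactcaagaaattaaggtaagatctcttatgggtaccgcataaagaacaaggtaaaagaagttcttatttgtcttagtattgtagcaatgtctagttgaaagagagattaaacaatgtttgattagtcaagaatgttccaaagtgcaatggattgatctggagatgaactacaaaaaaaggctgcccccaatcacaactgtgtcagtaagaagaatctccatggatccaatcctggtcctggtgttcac

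The HNF4-type core CAAAGTCNA, searched on both strands, was found in 10 of the 14 Cyp2c windows of the RefSeq table and in 1.04% of all 32851 windows of this length. The 14 windows cover 7 of the 9 measured genes (not Cyp2c54 and Cyp2c44), with both starts of Cyp2c39. Its stricter form CAAAGTCCA, which the first pattern contains, was in 6 of the 14 and in 0.475% of all, and among the listed genes it stood in the windows of Cyp2c40 and Cyp2c70. The core began 45 to 125 bases before the start. It was in both Cyp2c39 windows but not in that of Cyp2c38, and in that of Cyp2c37 but not in that of Cyp2c50. The windows are copies of common descent and are not separate observations: that of Cyp2c38 had the same base at 88.2% of 271 aligned positions of the downstream Cyp2c39 window, and Cyp2c37 and Cyp2c50 at 89.5% of 295. The TATA box letters TATAAA occurred in 10 of 14 windows (13.6% of all), the nuclear receptor element AGGTCA in 3 (16.3%), the HNF1 element GTTAAT in 3 (7.1%) and the C/EBP palindrome TTGCNNAA in 4 (10.8%). Direct repeats of AGGTCA with a spacer of N (0.0396% of all) or of NNNN (0.0152%) were in 0 of 14. A match is a run of letters and not a shown binding site.

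**Figure D1:**
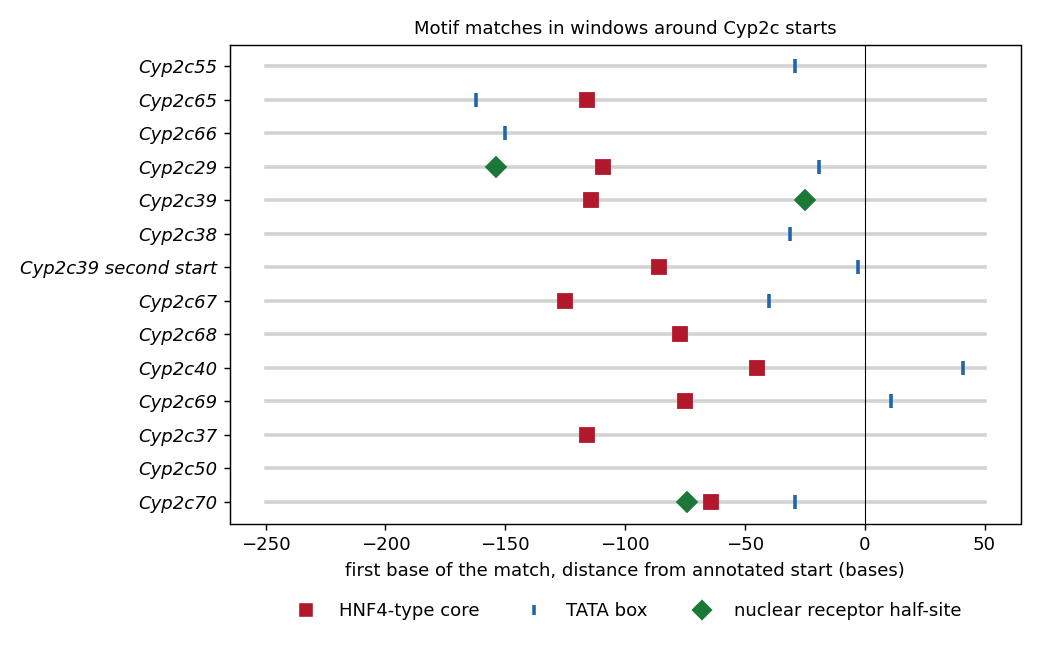
Matches to the HNF4-type core (squares), the TATA box (ticks) and the nuclear receptor element AGGTCA (diamonds), on either strand, in the 14 windows around Cyp2c starts, in order along the chromosome; the x axis is the distance of the match's first base from the annotated start in bases. The HNF4-type core lies 45 to 125 bases before the start in 10 windows, and "second start" is the downstream start of Cyp2c39.

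The values are log2 signals per probe set as deposited, taken as already scaled between arrays, and a gene's level can be compared between arrays but not with the level of another gene. Array medians lay between 6.11 and 6.30. Hepatocyte markers were measured on every array, with Alb (albumin) at 15.18 to 15.45 in BI, 15.18 to 15.41 in insulin and 15.15 to 15.44 in untreated liver. Tat, an amino acid enzyme of the same list, was at 12.96, 13.21 and 12.94 in BI, 13.33, 13.04 and 13.37 in insulin, and 13.31, 13.76 and 13.57 in untreated liver. All BI arrays of Tat lay below the untreated ones (-0.51 ± 0.19). Ass1, of the urea cycle, was at 6.87 on BI replicate 2 and at 8.12 to 9.27 on the other arrays. Its probe set was by far the dimmest of the list (mean 8.59), and whether it reports the main Ass1 RNA was not tested. Of the 13 measured hepatocyte markers, 7 were higher and 6 lower in BI against untreated. The summed linear signal ranged from 401799 to 458879 in BI, 405134 to 441644 in insulin and 395049 to 469913 in untreated liver. Most of these markers were about as bright as Alb and make up most of the sum. Whether signals this high still follow the amount of RNA was not tested. Gapdh probe sets at the 3′ and 5′ ends, whose difference rises as RNA degrades, stood apart by 0.26 to 0.42 in BI, 0.48 to 0.55 in insulin and 0.28 to 0.65 in untreated liver. Fewer cells of a type and less RNA per cell cannot be told apart in whole liver.

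All 9 measured family genes had a higher mean in BI liver and in insulin liver than in untreated liver (where 51.9% and 52.4% of all probe sets were higher), and 8 of 9 a higher mean in BI than in insulin liver (48.9% of all). The differences were small for Cyp2c29 and Cyp2c70 and largest, in BI against untreated, for Cyp2c38, Cyp2c39 and Cyp2c54. The median log2 difference over the 9 probe sets was 0.54 in BI against untreated, 0.43 in insulin against untreated and 0.15 in BI against insulin, beside medians over all 45037 probe sets of 0.016, 0.019 and -0.0083. In limma over all probe sets with Benjamini-Hochberg adjustment, 0 of the 9 passed an adjusted p of 0.05 in any contrast, where 0.0111%, 0% and 0% of all probe sets were called in the same order. At an unadjusted p of 0.05, 2 of 9 were higher in insulin against untreated (2.62% of all probe sets) and 2 of 9 in BI against insulin (2.1%). In BI against untreated 3 of 9 were (2.56%), a count that the choice of the family had in view and from which nothing is read. BI and insulin were set against the same untreated arrays, so the family's position in these contrasts is not seen in separate animals. BI against insulin uses the same BI arrays that the choice of the family had in view. Counts, intervals and p-values of insulin against untreated and of BI against insulin are therefore not independent of that choice. Untreated replicate 2 was the lowest of the 9 arrays for 7 of the 9 genes. Without it the medians were 0.17 in BI and 0.20 in insulin against untreated. Then 8 of 9 genes were higher in BI (all but Cyp2c55) and 7 of 9 in insulin (all but Cyp2c37 and Cyp2c44). In BI against insulin, 6 of 9 genes were higher without BI replicate 2 and 6 of 9 without BI replicate 3. After quantile normalization 7 of 9 were higher in that contrast.

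**Figure D2:**
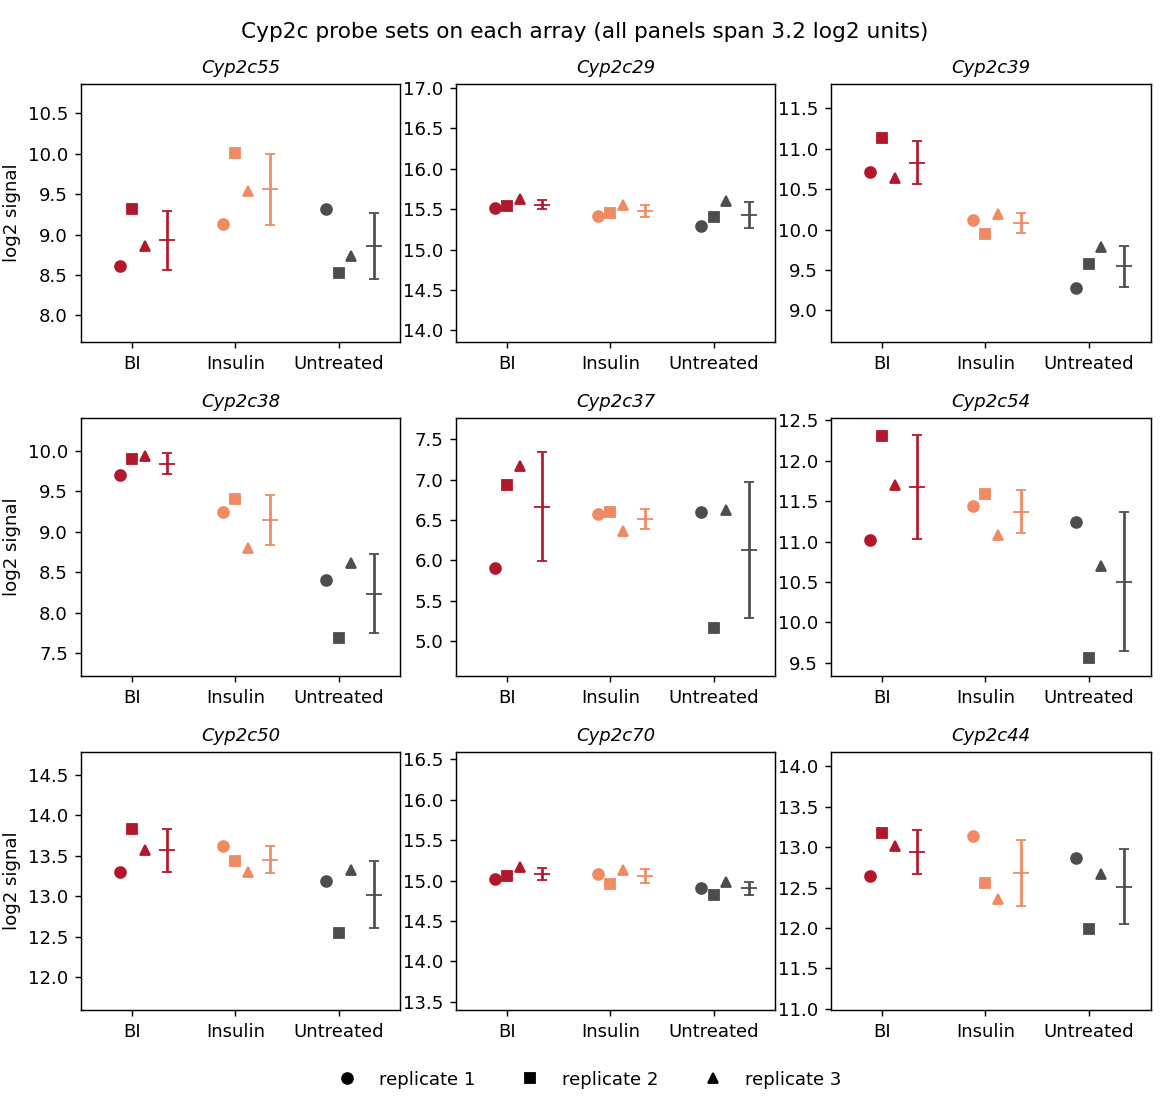
Log2 signal of the 9 Cyp2c probe sets on each array, by group, with replicates 1, 2 and 3 as circles, squares and triangles and the mean ± SD (n = 3) beside them; every panel spans the same height on the log2 axis. Cyp2c39 and Cyp2c38 step down from BI over insulin to untreated liver without overlap, and untreated replicate 2 is far below the other arrays for Cyp2c37 and Cyp2c54.

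Cyp2c39 and Cyp2c38, of which the second lies on the other strand within the annotated span of the first, were ordered over all 3 groups. Cyp2c39 oxidizes retinoic acid as well as arachidonic acid. Its log2 signal was 10.71, 11.13 and 10.64 on the BI arrays, 10.12, 9.95 and 10.19 on the insulin arrays, and 9.28, 9.57 and 9.78 on the untreated arrays. All BI arrays lay above all insulin arrays, and these above all untreated ones. The group means were 10.83 ± 0.26 in BI, 10.09 ± 0.13 in insulin and 9.54 ± 0.25 in untreated liver (SD, n = 3 each). The difference was 1.28 ± 0.21 (log2, SE) in BI against untreated, which is 2.43-fold. In insulin against untreated it was 0.54 ± 0.21 (95% interval 0.05 to 1.03, 1.45-fold), which did not pass in limma (adjusted p 0.9999, unadjusted p 0.0354). BI against insulin gave 0.74 ± 0.21 (95% interval 0.25 to 1.23, 1.67-fold), which did not pass either (adjusted p 0.9999, unadjusted p 0.0088).

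Cyp2c38 encodes an arachidonic acid epoxygenase. Its signal was 9.70, 9.90 and 9.94 on the BI arrays, 9.24, 9.40 and 8.80 on the insulin arrays, and 8.40, 7.69 and 8.62 on the untreated arrays. The order of the groups was that of Cyp2c39, again with no overlap, and the narrowest gap was between insulin replicate 3 and untreated replicate 3. The means were 9.84 ± 0.13 in BI, 9.15 ± 0.31 in insulin and 8.24 ± 0.49 in untreated liver (SD, n = 3 each). BI exceeded untreated by 1.61 ± 0.28, a 3.05-fold difference. Insulin exceeded untreated by 0.91 ± 0.28 (95% interval 0.25 to 1.57, 1.88-fold), short of the threshold in limma (adjusted p 0.9999, unadjusted p 0.0134). BI exceeded insulin by 0.70 ± 0.28 (95% interval 0.03 to 1.36, 1.62-fold; limma adjusted p 0.9999).

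Such an order, untreated below insulin below BI with no overlap of any groups, was met by 31 of the 45037 probe sets (0.0688%), of which Cyp2c38 and Cyp2c39 are 2. The reverse order was met by 25 (0.0555%) and the other orders by 18 to 28 each, none of them by a family gene. The outer step of this order had been seen before the family was chosen, and it is no independent observation. Without each array in turn, the difference of insulin against untreated ran from 0.41 to 0.66 for Cyp2c39 and from 0.64 to 1.10 for Cyp2c38.

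Cyp2c54, Cyp2c50 and Cyp2c37 lie side by side in the cluster and their enzymes oxidize arachidonic and linoleic acid. Cyp2c54 stood at 11.02, 12.30 and 11.69 on the BI arrays, 11.44, 11.59 and 11.08 on the insulin arrays, and 11.25, 9.56 and 10.70 on the untreated arrays. BI replicate 1 was below untreated replicate 1, and untreated replicate 2 was lowest by far. The means were 11.67 ± 0.64, 11.37 ± 0.26 and 10.50 ± 0.86 in BI, insulin and untreated liver (SD, n = 3 each), with differences of 1.17 ± 0.48 in BI and 0.87 ± 0.48 in insulin against untreated (limma adjusted p 0.9999 for insulin). Without untreated replicate 2 these were 0.70 and 0.40.

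Cyp2c50 was at 13.30, 13.83 and 13.57 in BI, 13.63, 13.44 and 13.30 in insulin, and 13.18, 12.55 and 13.33 in untreated liver. The groups overlapped through untreated replicate 3, which lay above BI replicate 1 and insulin replicate 3. Its differences were 0.55 ± 0.26 in BI and 0.43 ± 0.26 in insulin against untreated, and 0.31 and 0.20 without untreated replicate 2. Cyp2c37 was dim, with values of 5.90, 6.93 and 7.17 in BI, 6.58, 6.60 and 6.36 in insulin, and 6.60, 5.16 and 6.62 in untreated liver. These lie around the array medians, and with no background measure in the file it is not known whether they were above background. The difference of Cyp2c37 was 0.54 ± 0.48 in BI and 0.38 ± 0.48 in insulin against untreated, and 0.05 and -0.10 without untreated replicate 2.

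Cyp2c44 lies apart from the cluster on the same chromosome and encodes an arachidonic acid epoxygenase known best from kidney and vessels. Its signal was 12.64, 13.17 and 13.01 in BI, 13.14, 12.55 and 12.35 in insulin, and 12.87, 11.99 and 12.67 in untreated liver, so that all groups overlapped. BI stood 0.43 ± 0.31 and insulin 0.17 ± 0.31 above untreated (limma adjusted p 0.9999 for insulin). Without untreated replicate 2 these were 0.17 and -0.09, and without insulin replicate 1 the insulin difference was -0.06. The probe set is of a type (suffix _s_at) whose probes may match more than a single transcript.

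Cyp2c55, at the edge of the cluster, hydroxylates arachidonic acid and is known to be inducible through CAR and PXR. It was the family gene with its highest mean in insulin liver. It stood at 8.61, 9.32 and 8.86 in BI, 9.13, 10.004 and 9.54 in insulin, and 9.32, 8.53 and 8.74 in untreated liver. Insulin replicate 1 lay below the highest array of each other group. The difference was -0.63 ± 0.32 in BI against insulin (95% interval -1.39 to 0.13), 0.07 ± 0.32 in BI against untreated and 0.70 ± 0.32 in insulin against untreated (95% interval -0.06 to 1.46), and the contrasts with insulin liver did not pass in limma (adjusted p 0.9999 each). Without each array in turn, the difference of Cyp2c55 ran from -0.85 to -0.41 in BI against insulin and from 0.48 to 0.93 in insulin against untreated. In BI against untreated it ran from -0.13 without BI replicate 2 to 0.30 without untreated replicate 1. Its neighbour Cyp2c65, which was no listed gene, had 4.86, 6.71 and 5.99 in BI, 6.55, 7.74 and 6.59 in insulin, and 6.04, 5.68 and 5.61 in untreated liver. All insulin arrays of Cyp2c65 lay above all untreated ones (1.19 ± 0.51), and BI stood at -1.11 ± 0.51 against insulin with overlap (limma adjusted p 0.9999 each). These signals too are near the array medians. The Cyp2c65 probe set, like that of Cyp2c44, is of the _s_at type, whose probes may match more than a single transcript.

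Cyp2c29 and Cyp2c70 had the narrowest spread. Their mean signals, 15.49 and 15.02 over the 9 arrays, were at percentiles 99.98 and 99.78 of all probe sets. Whether signals this high still follow the amount of RNA was not tested, so their small differences need not mean steady RNA. The same holds for Alb and the other bright hepatocyte markers. Cyp2c29, an epoxygenase and a classical target of phenobarbital, lay between 15.51 and 15.62 in BI, 15.42 and 15.55 in insulin, and 15.29 and 15.61 in untreated liver. It differed by 0.13 ± 0.16 in BI and by 0.05 ± 0.16 in insulin against untreated, with 95% intervals of -0.24 to 0.49 and -0.32 to 0.41. The insulin difference had the other sign with equal array medians and without untreated replicate 1. Cyp2c70 makes muricholic acids, the hydrophilic bile acids of mice. Its values were 15.02, 15.06 and 15.17 in BI, 15.08, 14.96 and 15.14 in insulin, and 14.91, 14.82 and 14.98 in untreated liver. The BI arrays lay above the untreated ones by a small margin, with a difference of 0.18 ± 0.15 (95% interval -0.17 to 0.53), and insulin stood at 0.16 ± 0.15 (limma adjusted p 0.9999). Of all 9 genes, 3 had BI arrays entirely above the untreated ones (Cyp2c38, Cyp2c39 and Cyp2c70, where 4.94% of all probe sets were). Insulin arrays lay above untreated for 2 genes (5.33%), and BI arrays above insulin for 2 (4.6%). BI against untreated had been seen before the family was chosen, so nothing is read from its count and intervals here. The other counts are not independent of that choice. Cyp2c68, the other comparison gene, was at 0.54 ± 0.29 in BI and 0.24 ± 0.29 in insulin against untreated, with overlap.

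**Figure D3:**
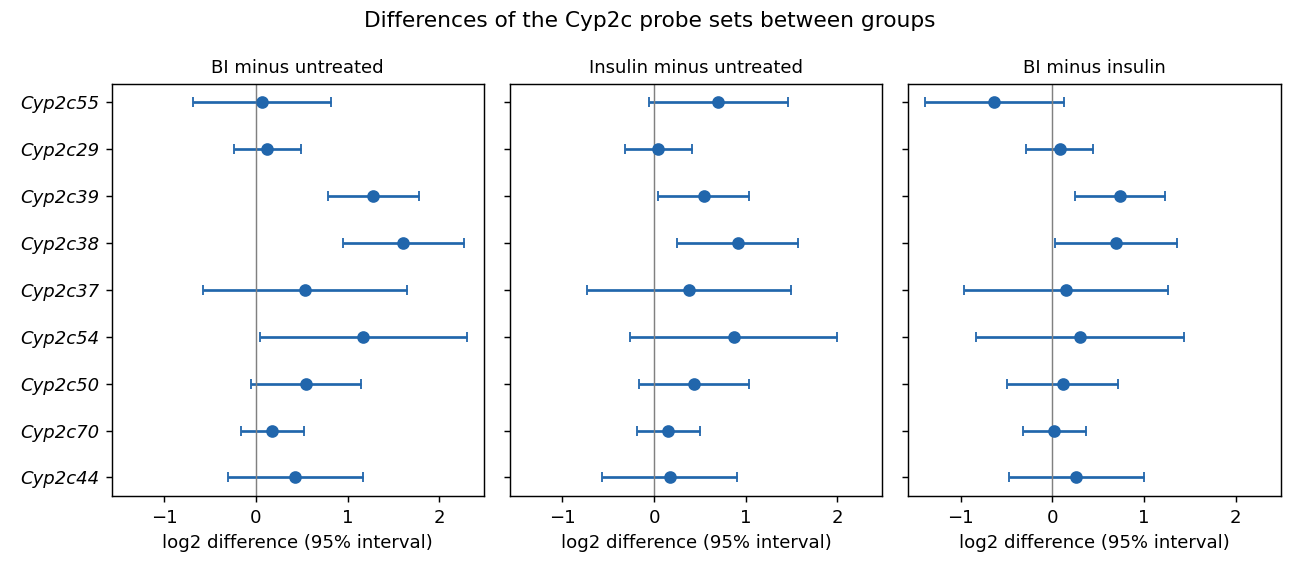
Log2 differences of the 9 Cyp2c probe sets with 95% intervals from limma (3 arrays per group), in order along the chromosome, for BI minus untreated, insulin minus untreated and BI minus insulin. Cyp2c38 and Cyp2c39 stand farthest right in BI minus untreated (1.61 and 1.28), and Cyp2c55 is left of 0 in BI minus insulin (-0.63). No difference passed an adjusted p of 0.05. BI minus untreated was seen before the family was chosen, so its intervals are a description and no test.

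Variation between arrays of the same group, which the choice of genes did not use, was shared by part of the family. Deviations from the group means were correlated over the 9 arrays, which leaves 6 free deviations per gene. Among Cyp2c37, Cyp2c38, Cyp2c44, Cyp2c50 and Cyp2c54, a set named after these values were seen, Pearson's r was 0.745 to 0.899 in all 10 pairs. Cyp2c39 had r of -0.041 to 0.298 with these 5, and -0.041 with Cyp2c38, though both genes had the same order of groups. Cyp2c55 and Cyp2c65, which shared the high insulin values, had r of 0.822. The high correlations rest in large part on untreated replicate 2 and BI replicate 1, low for several genes of the set. Without untreated replicate 2 the 10 pairs had r of 0.441 to 0.809 (8 arrays), and without both arrays -0.076 to 0.736 (7 arrays). Cyp2c54 and Cyp2c55, a pair not within the set, had r of 0.747 over the 9 arrays, above the lowest pair of the set. That pair had 0.723 without untreated replicate 2 and 0.665 without both arrays. The points share the array's RNA preparation and scaling.

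**Figure D4:**
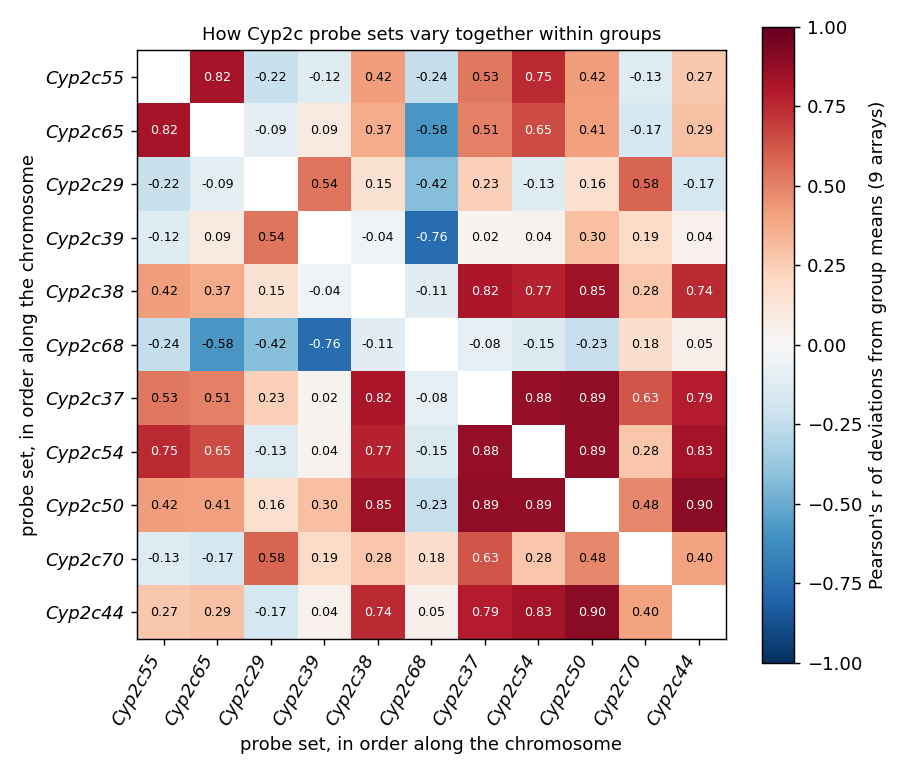
Pearson's r between Cyp2c probe sets of their deviations from group means over the 9 arrays, with genes in order along the chromosome on both axes. Pairs among Cyp2c37, Cyp2c54, Cyp2c50, Cyp2c44 and Cyp2c38 are dark red (0.745 to 0.899), while Cyp2c39 is pale with these genes. Cyp2c54 with Cyp2c55, a pair not within this set, reaches 0.747. The genes of the set form no unbroken block on the axes, as Cyp2c68 and Cyp2c70 lie between some of them.

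A family profile was formed as the mean deviation of the 9 genes from their own means over all arrays. It was -0.01, 0.52 and 0.35 on the BI arrays, 0.14, 0.16 and -0.02 on the insulin arrays, and -0.16, -0.81 and -0.16 on the untreated arrays. BI replicate 1 was level with insulin replicate 3, and the low value of untreated replicate 2 stands apart. Among 11195 other genes at or above the median level, those most like this profile over the 9 arrays were Hsd17b11, a dehydrogenase of lipid droplets (r = 0.982), Lrrc51 (0.958), the peroxiredoxin Prdx4 of the endoplasmic reticulum (0.955), the noncoding RNA Norad (0.951) and the glucuronosyltransferase Ugt2b1 (0.950). The least like were Hspa4l (-0.947), the actin-capping subunit Capzb (-0.942) and Fam160a2 (-0.932). For deviations within groups the nearest were Norad (0.988), Gstm7 (0.982), Car8 (0.975), Robo4 (0.974) and Hif1an (0.972). With 9 arrays and this many candidates, values of this size are a ranking and no evidence of a link.

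Regulators and partners of the family gave 0 calls in limma in each contrast, as did each other list described here, with 0 to 3 genes of a list at an unadjusted p under 0.05. Of all 18194 genes, 709 were below that p in BI against untreated, 704 in insulin against untreated and 625 in BI against insulin. Of 25 measured nuclear receptors and factors acting on Cyp2c genes, 8 were higher and 17 lower in BI against untreated (median -0.09), and 13 higher and 12 lower in insulin against untreated (median 0.01). CAR (Nr1i3) was at 9.76, 10.65 and 10.01 in BI, 9.92, 10.22 and 9.91 in insulin, and 9.81, 9.89 and 9.82 in untreated liver. PXR (Nr1i2) had means of 10.02 ± 0.08 in BI, 10.09 ± 0.20 in insulin and 10.06 ± 0.07 in untreated liver (SD, n = 3 each). Hnf4a stood at 13.70 ± 0.11, 13.75 ± 0.11 and 13.72 ± 0.07 in BI, insulin and untreated liver (SD, n = 3 each). None of these receptors differed between groups by more than 0.30. The members with the smallest p were Cebpb (-0.47 ± 0.23) and Rora (-0.38 ± 0.20) in BI against untreated, Rxrb (0.49 ± 0.21) and Nr0b2 (0.56 ± 0.35) in insulin against untreated, and Foxa3 (-0.66 ± 0.23) and Ahr (-0.45 ± 0.27) in BI against insulin.

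Genes known as targets of CAR and PXR were measured for 26 of 30 names, with 17 higher and 9 lower in BI against untreated (median 0.08) and 15 higher and 11 lower in insulin against untreated (median 0.02). Cyp2b10, the classical CAR target, had 10.55, 12.14 and 10.24 in BI, 10.29, 11.52 and 11.18 in insulin, and 11.06, 10.68 and 9.84 in untreated liver, with wide overlap. Cyp3a11, the main PXR target, was at 15.45 ± 0.16 in BI, 15.45 ± 0.11 in insulin and 15.43 ± 0.19 in untreated liver (SD, n = 3 each). These signals are about as high as those of Cyp2c29 and carry the same limit. The smallest p belonged to Gstm2, a glutathione transferase (-0.87 ± 0.29 in BI and -0.82 ± 0.29 in insulin against untreated), the exporter Abcc4 (0.71 ± 0.27 and 0.55 ± 0.27 in these contrasts) and, in BI against insulin, the bile salt exporter Abcc3 (0.54 ± 0.18) and Meg3 (-0.63 ± 0.33). Cyp2b10 and Cyp3a11 were chosen as the textbook targets, after their values had been seen.

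Electron supply and heme synthesis had 5 genes higher and 7 lower in BI against untreated (median -0.07 over 12 measured genes), with Cyb5r3 (-0.39 ± 0.25) and Hmox1, which degrades heme (-0.66 ± 0.45), at the smallest p. In insulin against untreated 4 were higher and 8 lower (median -0.06), with Ppox (0.42 ± 0.23) and Cyb5b (-0.31 ± 0.25) at the smallest p, and in BI against insulin these were Cyb5a (0.16 ± 0.14) and Cyb5b (0.24 ± 0.25). Other P450 genes of arachidonic acid and the epoxide hydrolases, which turn the epoxides into diols, had 6 of 17 higher in BI (median -0.06) and 8 of 17 in insulin (median -0.04) against untreated. Their smallest p were those of Cyp4f18 (-1.38 ± 0.92) and Cyp4f16 (-0.29 ± 0.21) in BI, Cyp2j11 (1.16 ± 0.92) and Cyp2j13 (-0.79 ± 0.82) in insulin against untreated, and Cyp4f18 (-1.47 ± 0.92) and Cyp2j11 (-1.47 ± 0.92) in BI against insulin. Other P450 genes of liver had 19 of 25 higher in BI (median 0.09) and 17 of 25 in insulin (median 0.06) against untreated. Cyp2b19 (1.36 ± 0.57) and Cyp2g1 (0.96 ± 0.42) had the smallest p in BI, Cyp2g1 (0.85 ± 0.42) and Cyp2a12 (0.44 ± 0.24) in insulin against untreated, and Cyp2d34 (-0.64 ± 0.34) and Cyp2b19 (0.79 ± 0.57) in BI against insulin. Over all 18194 genes 9110 were higher in BI and 9767 in insulin against untreated, with medians of 0.00036 and 0.023.

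Retinoid metabolism was examined because Cyp2c39 oxidizes retinoic acid, and 13 of its 23 measured genes were higher in BI and 9 in insulin against untreated (medians 0.02 and -0.04). Cyp26a1, the main retinoic acid hydroxylase of liver, had 9.20, 12.71 and 12.78 in BI, 8.90, 10.62 and 8.35 in insulin, and 9.82, 9.21 and 8.75 in untreated liver. Its high values were on BI replicates 2 and 3, while BI replicate 1 lay below untreated replicate 1. Cyp26b1, a related hydroxylase, was at 6.74, 10.07 and 8.90 in BI, 7.54, 8.59 and 7.03 in insulin, and 7.62, 3.77 and 3.99 in untreated liver. Its difference was 3.44 ± 1.21 in BI against untreated, with overlap. The untreated values of 3.77 and 3.99 lie well below the array medians, and whether they were above background is not known. The size of this difference is therefore uncertain. Rdh9, a retinol dehydrogenase, was at 11.82, 12.15 and 11.72 in BI, 11.24, 11.28 and 11.36 in insulin, and 11.21, 11.06 and 11.58 in untreated liver, all BI arrays above the others. Rdh9 differed by 0.61 ± 0.20 in BI against untreated and by 0.60 ± 0.20 in BI against insulin. In insulin against untreated the smallest p were those of Aldh1a3 (1.56 ± 0.54) and Rdh5 (-0.56 ± 0.21), and Cyp26a1 stood at 2.27 ± 1.03 in BI against insulin; none passed in limma.

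Bile acid synthesis, in which Cyp2c70 acts, had 13 of 19 genes higher in BI and 10 of 19 in insulin against untreated (medians 0.09 and 0.01). Cyp7a1, the rate-limiting enzyme, stood at 10.76, 10.82 and 10.91 in BI, 11.71, 12.14 and 11.31 in insulin, and 11.49, 12.16 and 13.06 in untreated liver. All BI arrays lay below all others. The difference of Cyp7a1 was -1.41 ± 0.40 in BI against untreated (limma adjusted p 0.923) and -0.89 ± 0.40 in BI against insulin. After Cyp7a1, the next smallest p were those of Cyp46a1 in BI against untreated (0.87 ± 0.41) and Amacr in BI against insulin (0.87 ± 0.51). In insulin against untreated the smallest p were those of Nr0b2 (0.56 ± 0.35) and Cyp46a1 (0.63 ± 0.41).

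Zonation and other cell types were read beside the family, since Cyp2c genes are known to be strongest around the central vein. Pericentral genes were higher in 8 of 16 cases in BI and in 4 of 16 in insulin against untreated (medians -0.02 and -0.06), and periportal genes in 4 and 3 of 11 (medians -0.05 and -0.14). Endothelial markers were lower in 10 of 10 cases in BI against insulin (median -0.38), where 9886 of all 18194 genes were lower. They were lower in 7 of 10 in BI against untreated (median -0.19) and higher in 9 of 10 in insulin against untreated (median 0.26), with a summed linear signal of 6685 to 8930 in BI, 9071 to 11211 in insulin and 7246 to 9923 in untreated liver. Kupffer cell and macrophage markers were also lower in 10 of 10 in BI against insulin (median -0.31), with medians of -0.15 in BI and 0.10 in insulin against untreated and sums of 11480 to 19071 in BI, 13281 to 18957 in insulin and 11553 to 23433 in untreated liver. Stellate cell markers had medians of 0.07 in BI and 0.01 in insulin against untreated (10 genes, summed signal 13960 to 19017 in BI, 14769 to 18255 in insulin and 12719 to 18481 in untreated liver). Cholangiocyte markers (6 of 8 measured) had medians of -0.46 and -0.21, with sums of 323 to 390 in BI, 349 to 433 in insulin and 400.3 to 668 in untreated liver. These too come from dim probe sets. Among them Sox9 was at 8.20 on untreated replicate 2 and at 5.56 to 7.21 on the other arrays. Lymphocyte markers (8 of 10 measured) had medians of 0.33 and 0.51, with sums of 290 to 378 in BI, 292 to 335 in insulin and 230 to 269 in untreated liver, all from dim probe sets. No marker was at 0 on any array. What part these markers have in the family's values was not tested.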

How the data were processed

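The deposited file holds log2 signals per probe set from 9 one-colour Affymetrix arrays; the labels do not state the authors' normalization, and the close array medians are why the values were taken as scaled. Per the labels' protocols, RNA was extracted with TRIzol and RNeasy columns and labelled by 3′ in vitro transcription. Values were used as deposited, after 64 control probe sets were left out. Genes were named from the platform annotation, updated by gene ID through RefSeq, and lists used each gene's probe set of highest mean. All 9 arrays entered a limma fit (version 3.58.1, R 4.3.3; lmFit, plain eBayes, group as factor, 6 residual degrees of freedom), two-sided, with Benjamini-Hochberg adjustment over 45037 probe sets at 0.05; the code was tested on simulated data. All family genes are reported whatever their values, and lists name the 2 genes of smallest p per contrast. Cell type and zonation lists give only counts and sums, except for Tat and Ass1 of the hepatocyte list and Sox9 of the cholangiocyte list. Alb, CAR, PXR, Hnf4a, Cyp2b10 and Cyp3a11 were named outside this rule. Members and lists were chosen with earlier results of these data known. Groups and replicate numbers come from the titles. Same-numbered arrays of different groups had deviations correlated at -0.159 to 0.147, so numbers were not taken as pairs. Motifs were counted and windows aligned with Biopython 1.88. Precision is limited by the number of arrays, with a 95% interval of ±0.66 at the median over the 9 probe sets.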

Additional observations from a re-analysis of the deposited data

How the results depend on the processing

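Differences were recomputed after quantile normalization, after setting array medians equal, without probe sets of a mean below 6.04, with trend and robust options of eBayes, on the compared groups alone, with a replicate block, and without each array. The fits on other settings of limma leave a gene's difference as it is by construction. Without untreated replicate 2, Cyp2c37 stood at 0.05 in BI against untreated (0.54 with it) and Cyp2c54 at 0.40 in insulin against untreated (0.87 with it). With the trend and robust fitting, 2 Cyp2c probe sets were called in BI against untreated (Cyp2c38 and Cyp2c39, in the contrast seen before the family was chosen) among 6 of all 45037, of which 1 was also called without these options; the other settings called 0 Cyp2c probe sets. Over all probe sets, BI against untreated had 5 calls, with 1 after the filter, 0 on the compared groups alone, 0 with the replicate block and 0 to 2 without each array (2 without insulin replicate 2, 0 without any other). BI against insulin had 0 calls, with 1 after the filter and 0 to 1 without each array (1 without insulin replicate 1 or 2). The family's median difference in BI against untreated ran from 0.17 without untreated replicate 2 to 0.70 without untreated replicate 3, that in insulin against untreated from 0.20 to 0.63 without these same arrays, and that in BI against insulin from 0.03 without BI replicate 2 to 0.41 without BI replicate 1. Without BI replicate 2, the array with the protocol on rats, 8 of 9 genes were higher in BI than in untreated liver, with a median of 0.41. Against insulin liver 6 of 9 were then higher in BI, all but Cyp2c50, Cyp2c54 and Cyp2c55. The labels tie no animal or batch to a replicate number, and 1 of 9 same-numbered pairs of arrays had deviations correlated above 0.1. Averaging a gene's probe sets was not run, as each family gene had a single probe set. Depth is set by 3 arrays per group and the missing background measure for dim probe sets.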

Other observations

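Genes of the liver that depend on sex and growth hormone, a trait shared by several P450 genes, were measured for 21 of 28 names, with 13 higher and 8 lower in BI against untreated (median 0.10) and 14 higher and 7 lower in insulin against untreated (median 0.05). Moxd1, a monooxygenase, stood at -1.08 ± 0.22 in BI and -0.48 ± 0.22 in insulin against untreated and at -0.60 ± 0.22 in BI against insulin. Hao2, a peroxisomal oxidase, stood at 1.28 ± 0.36 in BI against untreated and at 0.79 ± 0.36 in BI against insulin. Cyp17a1, of androgen synthesis, was at -1.85 ± 0.94 in insulin against untreated. None of these passed in limma over all probe sets, which called 0 of the list in each contrast.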
